A study of Mus musculus with 8 samples.

Results

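The genes described here encode the kinetochore, the centromeric chromatin beneath it, the spindle assembly checkpoint and the chromosomal passenger complex. They were taken by symbol from a list of 38 genes, and 36 of these symbols occur in the deposited table of 18306 genes, while Ska2 and Ska3 were not found under those symbols. They were measured in C3H10T1/2 cells, an established multipotent mesenchymal line from mouse embryo, by RNA sequencing of total RNA. All cells were first kept for 24 h without serum, and then received for another 24 h either 5 µM sphingosine 1-phosphate (S1P, a bioactive lipid sensed by receptors at the cell surface) or the vehicle, fatty acid-free bovine serum albumin. Each group had 4 libraries, replicates 1 to 4 for vehicle and 5 to 8 for S1P, and the labels name no genetic change in either. Whether replicates were grown as separate cultures is not stated, and the p-values therefore speak only to how these 8 samples vary, which may be technical.

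A kinetochore is built on nucleosomes that carry the histone H3 variant CENP-A. The constitutive centromere network binds these nucleosomes through the cell cycle, and in mitosis it recruits the outer kinetochore, whose Ndc80 complex holds spindle microtubules. Checkpoint proteins gather at kinetochores without microtubules and delay anaphase, and the chromosomal passenger complex destabilises wrong attachments. In cultured fibroblast-like cells many of these genes are transcribed mostly in G2 and mitosis, so that their RNA is low in cells that have left the cycle.

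Each library held 13750303 to 13761544 counts, and a count of 0 allows a level of up to 0.218 CPM (counts scaled to a common library size, corrected here by composition factors), for counting error only. Of 8 mesenchymal markers, Col1a1, Col1a2, Col3a1, Vim and Fn1 averaged 1586 to 10802 CPM in either group. Pdgfrb averaged 338 CPM in vehicle and 286 CPM after S1P, and Thy1 54.4 and 47.0 CPM. None of the 8 passed the test. Col3a1 was lower in every S1P library (2412 to 4579 CPM) than in any vehicle library (5316 to 5927 CPM), and Pdgfra averaged 1571 CPM in vehicle and 762 CPM after S1P, both without a call (Benjamini-Hochberg adjusted p from edgeR = 0.0571 and 0.0853). The summed level of the 8 markers was 25467 to 32925 CPM in vehicle and 21986 to 29526 CPM after S1P. Of the markers of other cell types, the immune genes Ptprc, Itgam and Cd3e and the endothelial genes Cdh5 and Vwf averaged less than that floor in both groups. So did the epithelial genes Krt14 and Krt19 and the muscle genes Myog and Des. Ptprc, Cd3e and Krt14 were at 0 in every vehicle library. Epcam, Krt5, Myod1 and Rbfox3 were not found under those symbols. The other markers of other cell types averaged at most 2.00 CPM in either group, except the endothelial-list gene Tek, at 54.8 ± 20.8 CPM in vehicle and 31.2 ± 12.1 CPM after S1P (SD, n = 4 per group). Vehicle replicate 4 stood apart from the other libraries, with a mitochondrially encoded share of 2.5% of counts against 3.45% to 3.83% in the other 7. Where it changed the call of a named gene, the value without it is given. RNA was taken from whole cultures, so a change in the share of cells in mitosis and a change in these RNAs per cell cannot be told apart.

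After S1P, 30 of the 36 kinetochore, centromere and checkpoint genes rose, 0 fell and 6 did not pass the test (edgeR quasi-likelihood test, Benjamini-Hochberg adjusted over all 11844 tested genes, threshold 0.05). Over all tested genes, 8.5% were called by the same rule, 5.6% as higher and 2.9% as lower. The log2 fold change was positive for 36 of 36 genes, against 46.1% of all tested genes, and DESeq2 and limma-voom also called 0 of them lower. At an unadjusted p under 0.05, 33 were higher and 0 lower, against 13.2% of all tested genes that were higher. Their median log2 fold change was 1.44 (a 2.72-fold difference), against -0.04 over all tested genes. In 32 of the 36 every S1P library lay above every vehicle library, a pattern that 11.9% of all tested genes showed, while the reverse pattern was seen in 0 of the 36 and 7.21% of all tested genes. A log2 fold change of at least 1 was reached by 25 of the 36, against 3.41% of all tested genes. These genes were chosen with results of these data known, so the counts are descriptions. The number of risers stayed at 30 of 36 with other composition factors (5.06% of all genes were higher with the RLE factors and 5.99% with none), other filters on low counts (3.41% with no filter and 5.67% with a minimum of 1 CPM), limma-voom (5.99%) or no robust step (5.69%). It was 32 with DESeq2 (7.09% of all genes) and 35 with 1 surrogate variable (12.4%). It was also 30 without vehicle replicate 1, 2 or 3 (4.1%, 3.86% and 4.88% of all genes) and without S1P replicate 5, 6 or 7 (4.87%, 2.79% and 3.41%). Leaving out S1P replicate 8 gave 28 (3.01%), and leaving out vehicle replicate 4 gave 35 (9.49%).

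**Figure D1:**
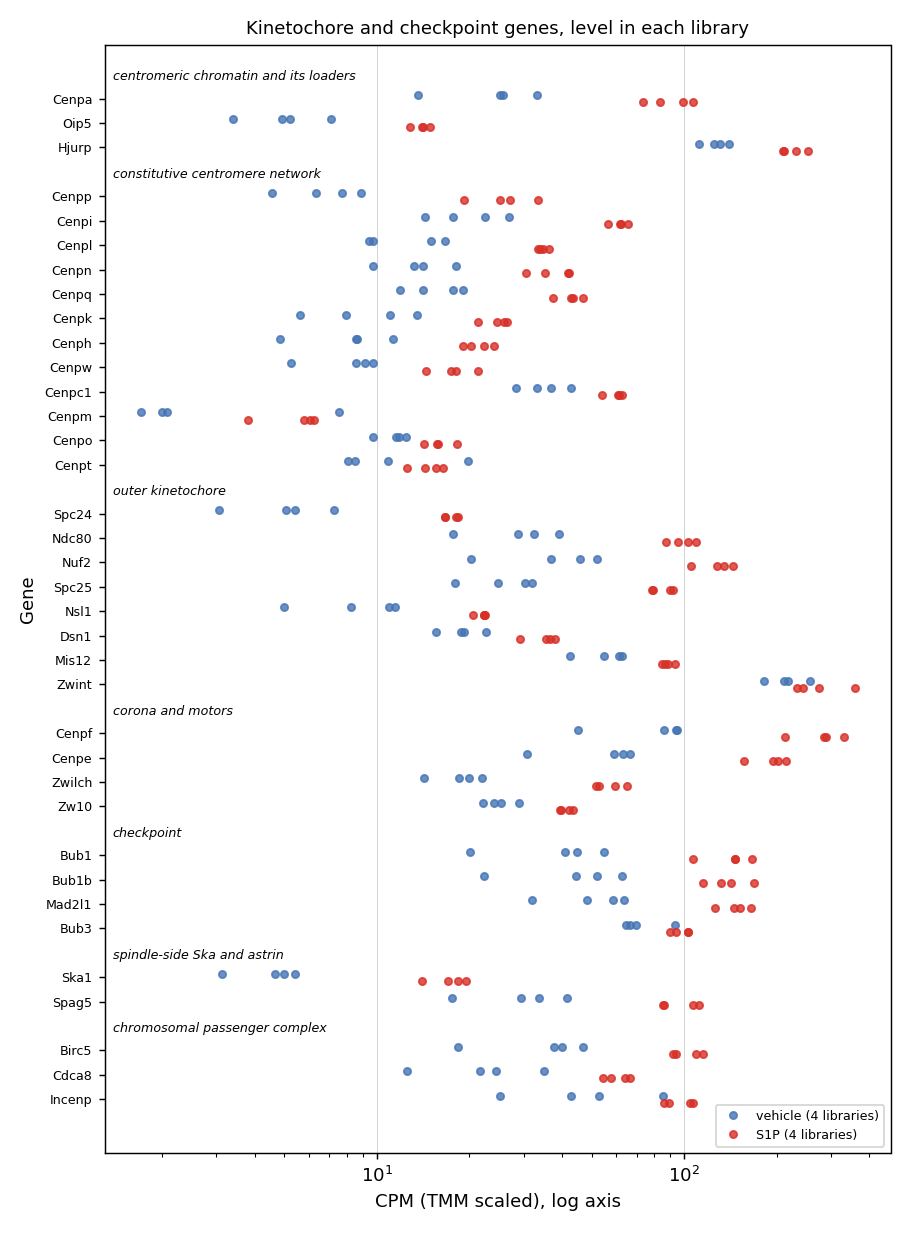
Level of each of the 36 genes (CPM, log axis) in every library, grouped by role, with vehicle libraries in blue and S1P libraries in red. In 32 genes the red points all lie to the right of the blue ones, and the groups overlap for Cenpm, Cenpt, Zwint and Bub3.

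Promoters are shown for the 4 genes with the largest increase among those with an entry in the RefSeq promoter table and for the 2 genes with the smallest change, because genes of mitosis that move together often share a cell cycle homology region and a CCAAT box near their start. The table covers 250 bases before to 50 bases after the start of a gene in GRCm38.p6 and held 31 of the 36 genes (not Spc24, Nsl1, Zwilch, Ska1 or Incenp). The sequences run 5′ to 3′ on the strand of the gene, and capitals mark every match, on either strand, to TTTGAA or TTCGAA (2 cores of the cell cycle homology region), to CCAAT or to 4 E2F-type sites (TTTCCCGC, TTTGGCGC, TTTGCCGC and TTTCGCGC). A CCAAT box on the other strand reads ATTGG. The first 4 lines are Cenpp (chr13:49652682-49652981 on the minus strand), Cenpa (chr5:30666636-30666935 on the plus strand), Bub1 (chr2:127831810-127832109 on the minus strand) and Cenpf (chr1:189688037-189688336 on the minus strand), and the last 2 are Cenpt (chr8:105851959-105852258 on the minus strand) and Zwint (chr10:72654596-72654895 on the plus strand).
Cenpp: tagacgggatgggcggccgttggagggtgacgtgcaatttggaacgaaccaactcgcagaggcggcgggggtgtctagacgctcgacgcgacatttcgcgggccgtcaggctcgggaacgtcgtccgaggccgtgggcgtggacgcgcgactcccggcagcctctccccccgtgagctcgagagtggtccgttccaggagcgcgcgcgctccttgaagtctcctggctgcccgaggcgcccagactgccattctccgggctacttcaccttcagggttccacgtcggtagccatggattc
Cenpa: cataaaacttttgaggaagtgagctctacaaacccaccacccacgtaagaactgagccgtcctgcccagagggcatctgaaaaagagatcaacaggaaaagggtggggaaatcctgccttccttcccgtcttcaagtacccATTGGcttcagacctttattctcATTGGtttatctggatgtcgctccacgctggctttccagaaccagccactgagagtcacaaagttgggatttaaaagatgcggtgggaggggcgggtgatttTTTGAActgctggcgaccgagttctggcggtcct
Bub1: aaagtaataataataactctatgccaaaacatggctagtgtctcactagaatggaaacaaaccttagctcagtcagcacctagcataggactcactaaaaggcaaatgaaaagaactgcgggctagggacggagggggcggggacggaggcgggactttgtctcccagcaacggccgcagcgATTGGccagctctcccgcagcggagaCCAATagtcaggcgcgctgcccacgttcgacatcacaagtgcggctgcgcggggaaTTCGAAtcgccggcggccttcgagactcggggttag
Cenpf: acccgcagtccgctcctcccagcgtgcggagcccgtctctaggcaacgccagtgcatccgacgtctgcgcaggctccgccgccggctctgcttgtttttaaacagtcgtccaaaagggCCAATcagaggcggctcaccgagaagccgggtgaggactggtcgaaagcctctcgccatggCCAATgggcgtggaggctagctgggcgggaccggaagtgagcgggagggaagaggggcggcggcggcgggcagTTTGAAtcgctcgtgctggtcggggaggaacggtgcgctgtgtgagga
Cenpt: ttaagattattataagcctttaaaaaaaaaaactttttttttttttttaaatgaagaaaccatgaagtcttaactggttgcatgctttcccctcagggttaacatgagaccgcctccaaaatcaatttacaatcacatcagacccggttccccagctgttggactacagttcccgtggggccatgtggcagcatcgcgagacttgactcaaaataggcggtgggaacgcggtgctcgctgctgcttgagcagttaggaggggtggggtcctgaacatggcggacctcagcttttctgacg
Zwint: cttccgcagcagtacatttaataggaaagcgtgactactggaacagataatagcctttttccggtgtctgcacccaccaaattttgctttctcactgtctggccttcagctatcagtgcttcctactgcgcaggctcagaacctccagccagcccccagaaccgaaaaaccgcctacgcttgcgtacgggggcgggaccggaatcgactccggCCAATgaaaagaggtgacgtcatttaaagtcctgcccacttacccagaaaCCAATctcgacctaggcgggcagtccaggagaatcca

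In Cenpa, Bub1 and Cenpf the core began 17, 15 and 3 bases into the transcribed side of the start, and each of these promoters also held 2 CCAAT boxes upstream, first bases at -109 and -86 in Cenpa, -68 and -42 in Bub1 and -132 and -71 in Cenpf. Zwint, which did not pass the test, held 2 CCAAT boxes and no such core, and Cenpt, which did not pass either, held none of the searched letters. Cenpp, which rose most, also held none. Of the 31 promoters, 14 (45.2%) held TTTGAA, 3 (9.68%) held TTCGAA, 22 (71.0%) held CCAAT and 3 (9.68%) held an E2F-type site. Among 8393 tested genes with an entry, these shares were 14.0%, 2.47%, 43.7% and 4.85%, and among all 32851 promoters they were 17.9%, 1.56%, 37.4% and 2.26%. A core together with CCAAT stood in 14 of the 31 (45.2%), against 6.82% of the tested genes and 7.53% of all promoters. It stood in 12 of the 26 genes that rose and in 2 of the 5 that did not pass. A match is a description of the letters only.

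Centromeric chromatin and its loading factors rose, 3 of 3 genes. Cenpa, the centromeric histone H3 variant (chromosome 5, 30968950 to 30977400 in mm9), stood at 13.6, 25.7, 25.1 and 33.1 CPM in vehicle replicates 1 to 4 and at 73.2, 99.3, 83.2 and 107 CPM in S1P replicates 5 to 8. The groups were far apart, vehicle replicate 1 was the lowest library, and the rise was 3.72-fold (log2 fold change 1.90, SE 0.25, Benjamini-Hochberg adjusted p from edgeR = 0.00355). Hjurp, the chaperone that deposits CENP-A (chromosome 1, 90155490 to 90174408), was already abundant in vehicle, at 112, 125, 140.1 and 130.4 CPM, and reached 212, 252, 209.7 and 230.5 CPM, a 1.78-fold rise. Oip5, a subunit of the Mis18 complex that primes centromeres for loading, went from 3.41, 4.9, 7.1 and 5.23 CPM to 12.8, 14.2, 14.8 and 14.0 CPM, 2.7-fold. Its span shares 572 bases with Nusap1, a mitotic gene on the opposite strand with a mean of 130 CPM and a log2 fold change of 1.72. The deposited counts are labelled sense, and the sources used here do not otherwise give how reads in the overlap were assigned.

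Of the 12 genes of the constitutive centromere network, 9 rose and 3 did not pass. With all libraries their log2 fold changes spread more widely than those of any other role, from 0.32 to 1.93. Without vehicle replicate 4 they spread from 0.49 to 1.90, less widely than those of the outer kinetochore (0.28 to 1.96). Cenpp (chromosome 13, 49559196 to 49748324) went from 4.55, 8.9, 7.69 and 6.32 CPM in vehicle to 19.3, 25.2, 27.1 and 33.3 CPM after S1P, the largest fold of the 36 genes at 3.82 (log2 fold change 1.93, SE 0.24, Benjamini-Hochberg adjusted p from edgeR = 0.00305). Its span holds, on the opposite strand, the matrix genes Aspn and Ogn with means of 1902 and 1204 CPM. Their log2 fold changes were 0.10 and -0.47. Beyond the label sense on the deposited counts, the counting of reads in these overlaps is not described, and the level of Cenpp is uncertain to that extent. Cenpi (chromosome X) went from 14.3, 22.5, 26.9 and 17.7 CPM to 56.7, 62.1, 61.6 and 65.8 CPM, 3.02-fold. Cenpl, which with Cenpn reads the CENP-A nucleosome, went from 9.45, 15.0, 16.6 and 9.73 CPM to 34.0, 34.7, 33.6 and 36.4 CPM, 2.73-fold. Cenpn itself went from 9.73, 13.2, 18.1 and 14.1 CPM to 30.5, 42.2, 35.3 and 42.0 CPM, 2.72-fold. None of these 4 genes had an S1P library within the range of vehicle.

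Cenpq, Cenpk, Cenph and Cenpw, which belong to the same network, rose 2.18-fold to 2.71-fold with groups apart. The span of Cenpq shares 741 bases with Mut on the opposite strand, with a mean of 80.8 CPM and a log2 fold change of 0.16. Cenpc1, the scaffold that links CENP-A nucleosomes to the outer kinetochore, rose less, from 33.3, 36.9, 42.7 and 28.3 CPM to 54.2, 61.0, 61.2 and 62.9 CPM, 1.69-fold (Benjamini-Hochberg adjusted p from edgeR = 0.0104). Cenpw was no longer called once S1P replicate 8 was left out (Benjamini-Hochberg adjusted p from edgeR = 0.0551), and its transcript shares stretches of at least 200 bases at 95% identity or more with transcripts of several other genes, so its level is uncertain. The transcript of Cenpc1 shares such a stretch of 319 bases with a transcript of Gtdc1.

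The 3 genes of the network that did not pass were Cenpo, Cenpm and Cenpt. Cenpt, which gives the Ndc80 complex a second anchor beside CENP-C, stood at 8.03, 10.9, 8.51 and 19.8 CPM in vehicle and 15.5, 16.4, 12.6 and 14.3 CPM after S1P. Vehicle replicate 4 lay above every S1P library, while vehicle replicates 1 to 3 lay below them all. The log2 fold change of Cenpt was 0.32 (SE 0.28, Benjamini-Hochberg adjusted p from edgeR = 0.511). Cenpm stood at 1.7, 2.0, 2.07 and 7.56 CPM in vehicle and 6.06, 5.82, 3.82 and 6.25 CPM after S1P. Here too vehicle replicate 4 lay above every S1P library and vehicle replicates 1 to 3 below them all. Without that library the log2 fold changes were 0.69 for Cenpt and 1.51 for Cenpm, and both passed (Benjamini-Hochberg adjusted p from edgeR = 0.0208 and 0.0062). Cenpo went from 9.73, 12.5, 11.8 and 11.6 CPM to 14.2, 15.8, 15.6 and 18.2 CPM, with groups apart but no call (Benjamini-Hochberg adjusted p from edgeR = 0.0777), and leaving out vehicle replicate 4 gave a call (Benjamini-Hochberg adjusted p from edgeR = 0.0427). DESeq2 also called Cenpo with all libraries. A stretch of 924 bases of the longest annotated transcript of Cenpo matches the neighbouring Adcy3. That gene lies on the opposite strand, with a mean of 20.8 CPM and a log2 fold change of -0.54. How far this match bears on the level of Cenpo depends on how strands were counted.

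Of 8 outer kinetochore genes, 7 rose and 1 did not pass, and with all libraries the 4 subunits of the Ndc80 complex rose by nearly equal folds of 3.23 to 3.36. Without vehicle replicate 4 the log2 fold changes of these 4 were 1.67 for Spc25, 1.70 for Nuf2, 1.73 for Ndc80 and 1.96 for Spc24. Ndc80 (chromosome 17, 71845240 to 71876397), which binds the microtubule, went from 17.7, 32.4, 39.1 and 28.7 CPM to 87.4, 109, 95.4 and 103 CPM (log2 fold change 1.74, SE 0.22, Benjamini-Hochberg adjusted p from edgeR = 0.00305). Nuf2, its coiled-coil partner, went from 20.3, 45.9, 51.9 and 36.9 CPM to 106, 135, 128 and 144 CPM. Spc25 and Spc24, which tie the complex to the inner side, stood apart between groups as well. Spc25 went from 17.9, 30.3, 32.0 and 24.8 CPM to 78.3, 91.7, 79.2 and 89.7 CPM, and Spc24 from 3.05, 5.05, 5.4 and 7.26 CPM to 18.1, 16.7, 16.7 and 18.3 CPM.

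The Mis12 complex receives the Ndc80 complex, and 3 of its subunits are among the 36 genes. Nsl1 rose 2.46-fold, Dsn1 1.83-fold and Mis12 1.6-fold. Mis12 (chromosome 11, 70832913 to 70841073) went from 55.0, 61.1, 62.5 and 42.6 CPM to 84.5, 86.7, 88.9 and 93.3 CPM, and it was no longer called once S1P replicate 8 was left out (Benjamini-Hochberg adjusted p from edgeR = 0.0543). A stretch of 231 bases of the Mis12 transcript matches one of the neighbouring Derl2, which lies on the opposite strand. How far this bears on the level of Mis12 depends on how strands were counted. Pmf1, the remaining subunit and not among the 36, had a log2 fold change of 0.71 and did not pass (Benjamini-Hochberg adjusted p from edgeR = 0.253), and without vehicle replicate 4 it passed at 1.23 (Benjamini-Hochberg adjusted p from edgeR = 0.0054). Zwint, a partner of the KNL1 scaffold, had the highest level per length of the 36 genes and did not pass. It stood at 257, 212, 217 and 182 CPM in vehicle and 359, 275, 233 and 244 CPM after S1P, where S1P replicates 7 and 8 lay within the vehicle range (log2 fold change 0.36, SE 0.16, Benjamini-Hochberg adjusted p from edgeR = 0.213). It did not pass under any other setting that was run either.

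**Figure D2:**
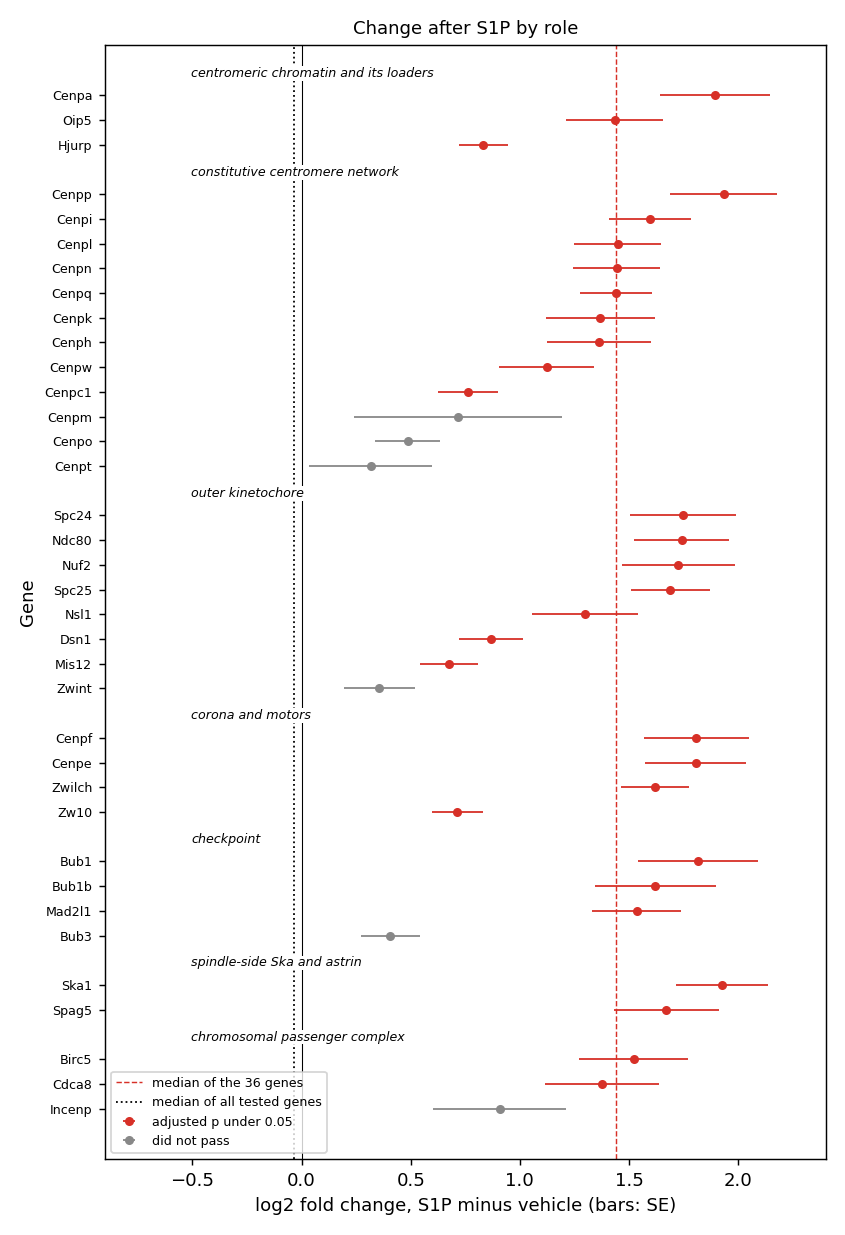
The log2 fold change of each gene, S1P minus vehicle, with its SE as a bar, grouped by role, in red where the edgeR adjusted p was under 0.05 and in grey otherwise. The dashed line is the median of the 36 genes (1.44) and the dotted line that of all tested genes (-0.04), and every role but the 2 spindle-side genes, the 4 corona genes and the 3 loading genes has at least 1 gene in grey.

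The fibrous corona is the outermost layer, where motors and the Rod-Zwilch-ZW10 complex recruit dynein and checkpoint proteins, and 4 of its 4 genes here rose. Cenpf, a large coiled-coil protein of the corona (chromosome 1, 191464278 to 191512165), went from 45.0, 94.5, 94.0 and 85.9 CPM to 212, 290.0, 285 and 332 CPM, 3.5-fold (log2 fold change 1.81, SE 0.24, Benjamini-Hochberg adjusted p from edgeR = 0.0036). Cenpe, the kinesin that carries chromosomes to the plate, went from 30.7, 63.1, 66.8 and 59.1 CPM to 156, 195, 202 and 214 CPM, 3.49-fold. In both genes vehicle replicate 1 was the lowest library and S1P replicate 5 the lowest of its group. Zwilch went from 14.2, 19.9, 22.0 and 18.5 CPM to 53.0, 64.9, 51.6 and 59.7 CPM, 3.07-fold, and Zw10 from 24.1, 25.3, 29.1 and 22.2 CPM to 43.5, 42.2, 39.9 and 39.5 CPM, 1.64-fold (Benjamini-Hochberg adjusted p from edgeR = 0.00699). Zw10 also serves in transport between endoplasmic reticulum and Golgi outside mitosis. The span of Zwilch shares 118 bases with Rpl4, a ribosomal protein gene on the opposite strand with a mean of 2139 CPM and a log2 fold change of -0.17. A stretch of 258 bases of the Zwilch transcript matches a transcript of Lctl, which also lies on the opposite strand.

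Of the 4 checkpoint genes, 3 rose and 1 did not pass. Bub1, the kinase that marks unattached kinetochores (chromosome 2, 127626658 to 127657801), went from 20.1, 44.7, 54.8 and 41.0 CPM to 107, 146, 146 and 166 CPM, 3.52-fold (log2 fold change 1.82, SE 0.28, Benjamini-Hochberg adjusted p from edgeR = 0.0054). Bub1b, which encodes the anaphase inhibitor BUBR1, went from 22.4, 44.5, 51.9 and 62.7 CPM to 115, 142, 131 and 169 CPM, 3.07-fold. Mad2l1, which encodes the MAD2 inhibitor of the anaphase-promoting complex, went from 32.0, 58.7, 63.9 and 48.2 CPM to 126, 152, 146 and 165 CPM, 2.9-fold, and a processed pseudogene matches 454 bases of its transcript. All 3 had groups apart. Bub3, the adaptor that carries both BUB1 and BUBR1 to kinetochores, stood at 64.9, 69.4, 66.4 and 93.4 CPM in vehicle and at 94.3, 103, 90.2 and 103 CPM after S1P (log2 fold change 0.41, SE 0.13, Benjamini-Hochberg adjusted p from edgeR = 0.0973). Only vehicle replicate 4 reached the S1P range, and without it Bub3 passed with a log2 fold change of 0.54 (Benjamini-Hochberg adjusted p from edgeR = 0.00504). In the deposited coordinates the span of Bub3 lies within a very long span given for Fgfr2, with a mean of 40.0 CPM and a log2 fold change of 0.11.

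Both spindle-side genes rose. Ska1, of the complex that tracks microtubule ends with Ndc80, went from 3.13, 4.97, 5.4 and 4.65 CPM to 14.0, 19.6, 17.0 and 18.4 CPM, 3.8-fold. Spag5, which encodes astrin (chromosome 11, 78114831 to 78136159), went from 17.5, 29.5, 33.8 and 41.6 CPM to 86.1, 107, 85.4 and 112 CPM, 3.19-fold. Neither gene had overlapping groups (Benjamini-Hochberg adjusted p from edgeR = 0.00248 and 0.00424).

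Of the 3 chromosomal passenger genes, 2 rose and 1 did not pass. Birc5, which encodes survivin (chromosome 11, 117710365 to 117717269), went from 18.4, 37.8, 40.0 and 46.8 CPM to 94.1, 109, 92.2 and 115 CPM, 2.87-fold (Benjamini-Hochberg adjusted p from edgeR = 0.007). Cdca8, which encodes borealin, went from 12.6, 21.6, 24.5 and 35.1 CPM to 54.4, 66.8, 57.9 and 64.4 CPM, 2.6-fold. The span of Cdca8 shares 2664 bases with 9930104L06Rik on the opposite strand, with a mean of 18.7 CPM and a log2 fold change of -0.03. Incenp, the scaffold that binds and activates the Aurora B kinase, stood at 25.2, 43.0, 52.7 and 85.0 CPM in vehicle and 85.9, 107, 89.2 and 105 CPM after S1P. Its groups were apart by less than 1 CPM, vehicle replicate 4 being just under S1P replicate 5, and it did not pass (log2 fold change 0.91, SE 0.30, Benjamini-Hochberg adjusted p from edgeR = 0.102). Without vehicle replicate 4 it passed, at 1.26 (Benjamini-Hochberg adjusted p from edgeR = 0.0115). DESeq2 also called Incenp with all libraries.

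To ask whether partners within a complex or a shared pathway step changed unequally, the log2 ratio of 12 gene pairs was compared between groups in an exact two-sided permutation test over the 8 libraries, adjusted over the 12 pairs by the Benjamini-Hochberg method. With 4 libraries against 4 the smallest p is 0.0286, and 9 of the 12 pairs reached it (adjusted p = 0.0381 each, in the exact permutation test). By this adjustment no pair could pass alone, since the smallest p passes only when several pairs reach it together. The pairs share genes, so these are not 9 separate observations, and they were drawn from genes chosen with results of these data known. The 9 had no overlap between groups. The ratio of Bub1 to Bub3 shifted by 1.45 on the log2 scale, from -1.67 to -0.28 in vehicle to 0.18 to 0.69 after S1P. Those of Bub1b and Mad2l1 to Bub3 shifted by 1.27 and 1.15. These ratios are not corrected for gene length, so only their change is read. The ratio of Cenpa to Cenpc1 shifted by 1.16, Ndc80 to Mis12 by 1.09 and Zwilch to Zw10 by 0.90. In the passenger complex Birc5 shifted by 0.56 and Cdca8 by 0.42 against Incenp. Among the loading factors Hjurp fell by 0.56 against Oip5 in this ratio, as both rose, and this pair was no longer called with 2 CPM added in place of 0.5 (a difference of -0.36, exact permutation p = 0.0571, adjusted p = 0.0686). Without vehicle replicate 4 the differences of Birc5 and Cdca8 against Incenp were 0.43 and 0.35, and that of Cenpa against Cenpc1 was 1.43.

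Neither pair within the Ndc80 complex showed a detectable shift. The log2 ratio of Ndc80 to Nuf2 was -0.49 to -0.19 in vehicle and -0.48 to -0.27 after S1P, a difference of -0.01 (exact permutation p = 0.914, adjusted p = 0.997). Leaving out any 1 library kept that difference between -0.05 and 0.05. The ratio of Spc25 to Spc24 differed by -0.01 (exact permutation p = 1), and by -0.19 to 0.06 with any 1 library left out. It was 1.71 in vehicle replicate 4, 2.37 to 2.47 in vehicle replicates 1 to 3 and 2.08 to 2.42 after S1P, so its mean in vehicle depends on replicate 4. Nuf2 to Nsl1 shifted by 0.47 and did not pass (exact permutation p = 0.0571, adjusted p = 0.0686). These ratios do not depend on a library's scaling beyond the added 0.5 CPM.

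**Figure D3:**
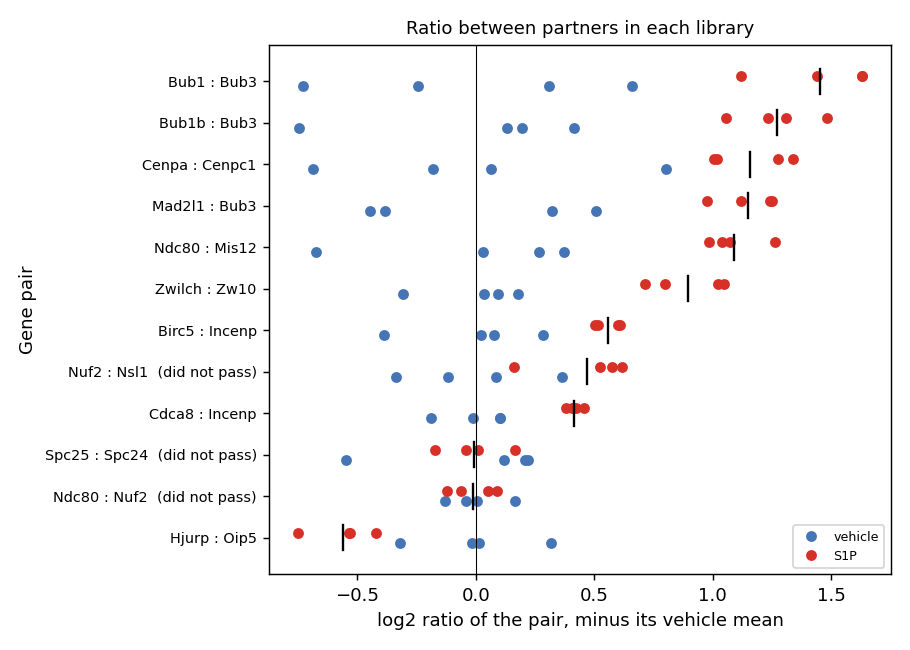
The log2 ratio of each gene pair in every library, minus the mean of that ratio in vehicle, with vehicle in blue, S1P in red and the S1P mean as a black tick. The Bub1 to Bub3 ratio moved most, by 1.45, while Ndc80 to Nuf2 and Spc25 to Spc24 had S1P means of -0.01. The lowest point of Spc25 to Spc24 is vehicle replicate 4.

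Per kilobase of annotated exon (GENCODE M21, all isoforms joined), the level in vehicle ranged from 1.57 CPM per kb for Cenpo to 48.9 CPM per kb for Zwint, followed by Mis12 at 18.4, Hjurp at 15.2 and Incenp at 11.9 CPM per kb. Without vehicle replicate 4 Incenp was at 9.31 CPM per kb, just under Bub3 (9.55) and Birc5 (9.43), and the lowest level was that of Cenpm, at 1.19 CPM per kb. After S1P, Zwint stayed highest at 62.6 CPM per kb, and Bub1b at 32.6, Bub1 at 32.5, Birc5 at 30.2 and Mis12 at 29.4 CPM per kb came next, close to each other. Within the Ndc80 complex, the level per length was lowest for Spc24 in both groups (2.02 and 6.78 CPM per kb) and highest for Spc25 (8.24 and 26.6 CPM per kb). The level in vehicle and the change were only weakly related across the 36 genes (Pearson r = -0.19, Spearman rho = -0.06 between log2 vehicle CPM and log2 fold change, a description over genes measured in the same libraries).

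The 36 genes also varied together between libraries of 1 group. Their summed level was 969.6, 1295, 1406 and 1320 CPM in vehicle replicates 1 to 4 and 2647, 3057, 2796 and 3161 CPM in S1P replicates 5 to 8. Vehicle replicate 1 was the lowest vehicle library for 32 of the 36 genes, against 23.6% of all tested genes, and the median gene lay 0.57 below its own vehicle mean there on the log2 scale. Vehicle replicate 3 was the highest vehicle library for 21 of the 36, against 23.5% of all tested genes. S1P replicate 5 was the lowest S1P library for 24, against 32.1%, and S1P replicate 8 the highest for 20, against 20.5%. The spread was wider in vehicle, with a median coefficient of variation of 29.1% against 10.9% after S1P, where all tested genes had medians of 21.4% and 11.3%. It was wider in vehicle for 34 of the 36, against 81.3% of all tested genes. No label accounts for these differences between libraries of a group.

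**Figure D4:**
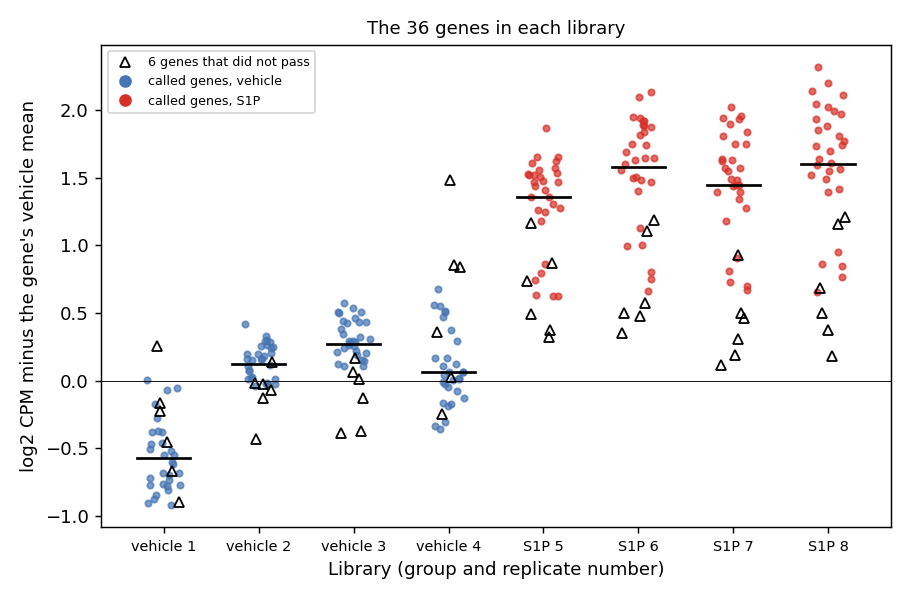
Each point is 1 of the 36 genes in 1 library, as log2 CPM minus that gene's mean in vehicle, with the median of the library as a bar and the 6 genes that did not pass as open triangles. The median of vehicle replicate 1 is -0.57, and the medians of the S1P libraries are 1.36 to 1.60.

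Vehicle replicate 4 differed in another way. Its deviation from the other 3 vehicle libraries rose with the GC content of the transcript across the 36 genes (r = 0.71) as it did across 11634 tested genes with a transcript (r = 0.76, over genes that share these libraries). The 3 genes with the largest deviation were Cenpm (1.73 on the log2 scale, transcript GC of 55.9%), Incenp (1.13, 54.7%) and Cenpt (1.08, 51.5%), all among the 6 that did not pass. At the other end Mis12 was 0.47 lower in vehicle replicate 4 (a deviation of -0.47, GC of 45.6%) and Cenpl 0.43 lower (-0.43, 40.8%). For vehicle replicate 1 the same relation over the 36 genes was absent (r = -0.09). Without vehicle replicate 4, 35 of the 36 genes rose, against 9.49% of all genes tested in that fit, and the number was the same without S1P replicate 5 as well (9.92%).

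**Figure D5:**
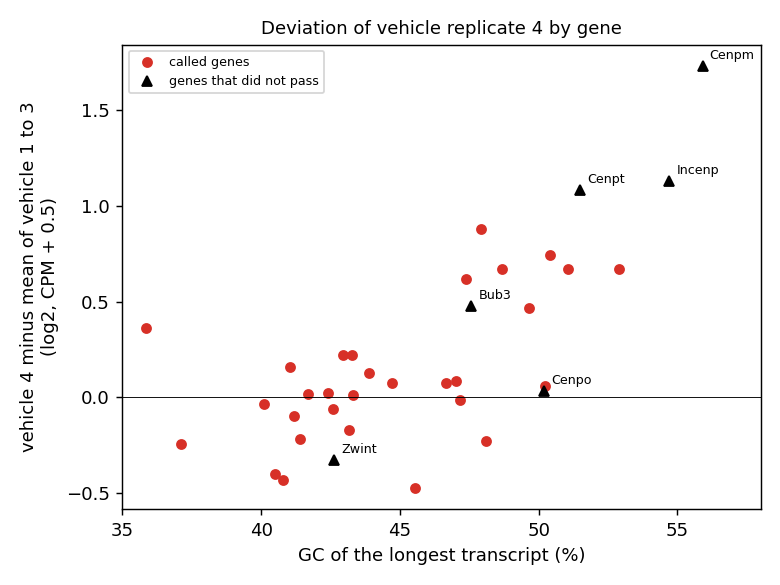
The log2 deviation of vehicle replicate 4 from the mean of the other vehicle libraries (vertical) against the GC content of each gene's longest annotated transcript (horizontal) for the 36 genes. Cenpm, Incenp and Cenpt, which did not pass, lie at the upper right with deviations of 1.08 to 1.73.

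Other genes of the pathway were read from a list of 38, of which 35 were found and tested. Of these 17 rose, 0 fell and 18 did not pass (edgeR quasi-likelihood test, Benjamini-Hochberg adjusted), with a median log2 fold change of 0.78, and 22 rose without vehicle replicate 4. Of all tested genes, 5.6% were called higher and 2.9% lower, and without vehicle replicate 4 9.49% were called higher. DESeq2 and limma-voom also called 0 of the list lower, and 34 of its 35 log2 fold changes were positive, against 46.1% of all tested genes. The 6 risers with the largest change were Kif18a, a kinesin that dampens chromosome movement (log2 fold change 1.91), Sgol1, the protector of centromeric cohesion (1.84), Kif2c, a microtubule depolymerase (1.84), Casc5, which encodes the KNL1 scaffold (1.80), the checkpoint kinase Ttk (1.72) and Sgol2, the other shugoshin (1.69). Kntc1, which encodes the ROD partner of Zwilch, rose with a log2 fold change of 1.58. Cenpb, which binds centromeric satellite DNA, stood at 106, 113, 105 and 227 CPM in vehicle and at 149, 142, 123 and 141 CPM after S1P. It was not called with all libraries (log2 fold change 0.01), and without vehicle replicate 4 it passed at 0.36 (Benjamini-Hochberg adjusted p from edgeR = 0.0242). The microtubule tip proteins Clip1 and Clasp1 had log2 fold changes of 0.00 and 0.04. Mad1l1, the partner of MAD2, had 0.25 (Benjamini-Hochberg adjusted p from edgeR = 0.622), and without vehicle replicate 4 it passed at 0.66 (Benjamini-Hochberg adjusted p from edgeR = 0.0197).

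Beside the kinetochore genes, 7 of 8 condensin subunit genes rose with a median log2 fold change of 1.34, and 10 of 22 replication licensing genes rose with a median of 0.63, against 5.6% of all tested genes called higher. Without vehicle replicate 4 these were 8 of 8 with a median of 1.42 and 18 of 22 with a median of 0.86, against 9.49% of all genes tested in that fit. The difference between these lists and the kinetochore genes was not tested.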

How the data were processed

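RNA of C3H10T1/2 cells was sequenced in 4 vehicle and 4 S1P libraries, and the authors deposited whole-number read counts per Ensembl gene with symbols and mm9 coordinates. STAR 2.5.3a and mm9 are named in the submitters' processing notes. The deposited counts are labelled sense, and the sources used here give nothing further on the strand setting, the counting tool or its annotation. Column totals of the deposited counts were nearly equal (13750303 to 13761544), so the depth before any reduction to a common size is unknown, and low levels are limited by the 3 counts behind each floor, for counting error only. Columns were matched to samples by title. Replicates differed by more than counting noise (log2 CPM correlations of 0.933 to 0.989 in vehicle and 0.977 to 0.992 after S1P).

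Genes were kept with filterByExpr (minimum count of 10) in edgeR 4.0.16 under R 4.3.3, scaled by TMM factors and tested with the robust quasi-likelihood test, in a model of treatment alone fitted to the 8 libraries. P-values were Benjamini-Hochberg adjusted over all tested genes, with a threshold of 0.05. CPM values are TMM scaled, and SE is the log2 fold change divided by the square root of F. The test was tested on simulated data. Those counts were drawn independently for each gene, so they do not cover differences between libraries that many genes share. Pair ratios used CPM + 0.5 and SciPy 1.17.1. Spans overlapping a gene were read from the deposited coordinates, strands, exon lengths, GC content and near-identical transcripts from GENCODE M21 (GRCm38), and promoters from RefSeq (GRCm38.p6), matched by symbol. Near-identical transcripts were searched on both strands. Alternatives were other composition factors, other filters, DESeq2 1.42.0, limma-voom (limma 3.58.1), no robust step, 1 surrogate variable (sva 3.50.0) and left-out libraries.

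The genes and lists were chosen with earlier results of these data known. In each role, up to 4 genes with the largest and 2 with the smallest absolute change get values in every library. Cenpc1 and Cenpm were added after their values were seen, as were Pmf1, Kntc1 and the other pathway genes named as not passing, and Top2a was left out of the condensin list, since it encodes no condensin subunit. Of 14 pairs, 12 could be tested, since Ska2 was not found.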

Additional observations from a re-analysis of the deposited data

Results flagged for a closer look

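In 72 groups of 4 libraries (36 genes in 2 groups), 3 held a library far from the other 3 by Dixon's criterion. Among independent groups this criterion marks about 1 group in 20 by chance. The genes here share the same libraries, so the groups are not independent and no conclusion is drawn from the number. Cenpm stood at 7.56 CPM in vehicle replicate 4, where the other 3 libraries of its group held 1.7 to 2.07 CPM. Bub3 stood at 93.4 CPM in vehicle replicate 4, against 64.9 to 69.4 CPM. Nsl1 stood at 20.5 CPM in S1P replicate 7, against 22.3 to 22.5 CPM, a narrow range.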

How the results depend on the processing

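The count of risers among the 36 genes was 28 to 35 in every setting run, with 28 without S1P replicate 8, 35 without vehicle replicate 4 or with 1 surrogate variable, 32 with DESeq2 and 30 with limma-voom, and 28 of the 36 genes were called in each of them. No gene among the 36 changed direction. Cenpw and Mis12 lost their call without S1P replicate 8, and Cenpm, Cenpo, Cenpt, Bub3 and Incenp gained one without vehicle replicate 4 or with a surrogate variable. Cenpo and Incenp also gained one with DESeq2 on all libraries. Over all genes, 663 rose and 344 fell. These were 1471 and 1015 with a surrogate variable, 941 and 797 with DESeq2 and 1178 and 934 when vehicle replicate 4 and S1P replicate 5 were both left out, and they ranged from 333 to 1133 and from 101 to 723 when a library was left out, the highest without vehicle replicate 4 and the lowest without S1P replicate 6, while leaving out S1P replicate 7 or 8 also moved both counts by over 1.5 times. The cause was not tested. Risers among the other pathway genes were 12 to 25. With 2 CPM added in place of 0.5, 8 of 12 pairs passed, Hjurp to Oip5 did not (-0.36), and Spc25 to Spc24, at -0.01 with no call, was 0.18. The cause was not tested. Every pair kept its direction or moved by less than 1 SD when a library was left out. The pairs with Ska2 were not run. No paired analysis was possible because the vehicle libraries are numbered 1 to 4 and the S1P libraries 5 to 8, so the groups share no replicate number.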
